A study of Mus musculus with 16 samples.

Results

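Endothelial cells (EC) of lung veins carry a set of transcripts that arteries and capillaries hold at lower levels, and 9 of them were followed here: Nr2f2, Ephb4, Slc6a2, Bst1, Prss23, Cpe, Fgl2, Ch25h and Amigo2. They were chosen by name as venous identity genes and read by symbol from a table of 28692 genes, 17513 of which had a unique molecular identifier (UMI, the tag that marks 1 captured transcript) in an EC. All 9 were in the table. Lung EC of female C57BL/6N mice had been sorted by FACS and profiled with the 10x Genomics Chromium 3′ kit, version 2. Day 0 (d0) stood for wild-type mice, d15 for bearers of a primary tumour, d22 for animals after its resection and d36 for bearers of metastases, and the tumour cells of the last 3 groups were Lewis lung carcinoma cells placed under the skin. No other allele or agent is named in the labels, and the label wild-type is given to d0 alone. The labels list 4 libraries for each day and do not say whether they came from separate animals.

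Vein identity is set by transcription. Nr2f2 encodes COUP-TFII, a nuclear receptor that holds Notch signalling down in veins and is also needed for lymphatic vessels. EphB4 is a receptor tyrosine kinase of venous EC, and its ligand ephrin-B2 (Efnb2) marks arteries. The other members are effector genes: Slc6a2 is the noradrenaline transporter, with which lung EC clear noradrenaline from blood, Bst1 (CD157) is a surface enzyme that makes cyclic ADP-ribose, Prss23 is a secreted serine protease, Cpe is a carboxypeptidase that trims peptide hormones, Fgl2 is a fibrinogen-like protein with prothrombinase activity, Ch25h makes 25-hydroxycholesterol, and Amigo2 is a leucine-rich repeat adhesion protein.

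In mm10 the members lie on 5 chromosomes. Slc6a2 is at chr8:92960079-93001667 on the plus strand, Prss23 at chr7:89507783-89527187 on the minus strand and Nr2f2 at chr7:70351944-70366735 on the minus strand. Ephb4 is at chr5:137350109-137378669, Bst1 at chr5:43818885-43843986 and Fgl2 at chr5:21372642-21378374, all on the plus strand. Cpe at chr8:64592542-64693054, Amigo2 at chr15:97244125-97247287 and Ch25h at chr19:34473778-34475164 are on the minus strand. Every member but Slc6a2 and Cpe overlaps a gene on the opposite strand, and use of the strand in counting is not given in the sources used here. Of those partners in the table, Fbxl5, which overlaps Bst1, was the most abundant, at 50.4, 52.2, 47 and 60.4 CPM (counts per 1000000 UMIs) on d0, d15, d22 and d36, the order in which sets of 4 daily values are given from here on. Pced1b, which overlaps Amigo2, had 24.7, 26.1, 31.6 and 22.9 CPM, and neither followed its member by day.

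Promoters are shown because COUP-TFII binds the letters AGGTCA, and the members were examined for that hexamer. RefSeq windows of 300 bases on GRCm38.p6, from 250 before to 50 after each annotated start, were found for 6 of the 9 members (12 windows). Prss23 was the only one of the 6 with AGGTCA on either strand, with 2 matches in the window below and 1 of these also in the window of a neighbouring start. The hexamer was in 16.3% of 32851 promoter windows of the same length. The Nr2f2 window is set beside it as that of the gene whose product binds the motif. In both, letters run 5′ to 3′ on the gene's strand, and capitals mark AGGTCA or its reverse complement.
Prss23 chr7:89518155-89518454, minus strand: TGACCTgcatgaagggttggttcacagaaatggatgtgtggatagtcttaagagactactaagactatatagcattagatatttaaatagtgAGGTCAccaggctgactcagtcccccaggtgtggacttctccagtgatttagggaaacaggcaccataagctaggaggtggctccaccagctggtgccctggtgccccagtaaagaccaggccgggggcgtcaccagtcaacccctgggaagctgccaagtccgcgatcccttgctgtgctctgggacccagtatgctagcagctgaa
Nr2f2 chr7:70366697-70366996, minus strand: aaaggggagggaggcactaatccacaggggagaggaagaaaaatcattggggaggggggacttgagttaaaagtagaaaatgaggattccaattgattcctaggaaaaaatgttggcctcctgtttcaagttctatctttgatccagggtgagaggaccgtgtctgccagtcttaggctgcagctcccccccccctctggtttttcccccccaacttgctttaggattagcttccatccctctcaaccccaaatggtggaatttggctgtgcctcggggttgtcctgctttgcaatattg
The letters TGGGAA, the core bound by RBPJ, the DNA-binding partner of Notch, were in 25.6% of the windows and, among the members, in windows of Prss23, Fgl2 and Ch25h. A match describes letters only, and binding was not measured.

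The files held 9036 cells, of which 8908 were kept as EC: 2640, 1491, 3193 and 1584 in day order. Cell names carried the day but not the library, so each day was 1 pooled sample, the spread between libraries could not be measured, and no p-value was computed. Depth per EC moved with the day: the median was 7654 UMIs for d0, 4176 for d15, 7667 for d22 and 3408 for d36. Depth was thus near-equal between d22 and d0, lower at d36 than at d15, and lower at both of these than at d0. The totals of 23077181, 6932749, 27665289 and 6723984 UMIs set the precision. Intervals are exact 95% intervals for counting error only. They take UMIs as independent, and a member's UMIs lay in few cells (in 2.23% to 27.1% of EC at d0), so true error is wider. There were 36 cell barcodes shared between days.

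The members marked 1 small group of EC, apart from Ephb4. When EC were clustered with all 9 left out of the genes used, 332 EC fell into 1 cluster. It carried other vein genes (Vwf at 1412 CPM against 101 in other EC, Car8 at 516 against 6.86). The arterial genes Gja5 (0.314 against 13.2) and Efnb2 (15.4 against 94.5) were low there, but Bmx was at 10.3 against 13.2. Fbln5, also on the arterial list, was higher, at 524 against 38.4. The 14 arterial markers summed to 2625 CPM against 2895, so the cluster was not poor in them as a set. The 14 venous markers, used in naming clusters, summed to 6782 against 682. The cluster is called venous-like here. Of its 10 leading genes, 6 were members (Slc6a2, Fgl2, Ch25h, Bst1, Cpe and Prss23), which the clustering had not used. The members had been chosen with earlier results of these data known, so this is a description and not independent support. These 332 cells held 4.95% of the UMIs of EC, but 84.7% of those of Slc6a2, 78% of Fgl2, 75.7% of Ch25h, 73.7% of Bst1 and 67.6% of Cpe. The share was 58.5% for Prss23, 52.3% for Amigo2 and 47.4% for Nr2f2. For Ephb4 it was 7.75%, near the share of all UMIs. Its cells had a median of 9097 UMIs.

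Levels in venous-like EC stood far above those in all other EC for the effector genes. Slc6a2 had 912 CPM (879 to 945) in venous-like EC and 8.58 in other EC, a ratio of 106. Fgl2 had 246 (229 to 264) against 3.61, a ratio of 68.1, and Ch25h 276 (258 to 294) against 4.61, a ratio of 59.8. The surface enzyme gene Bst1 stood at 420 (398 to 443) against 7.79, a ratio of 53.9. Cpe had 569 (544 to 596) against 14.2, a ratio of 40, Prss23 had 3440 (3376 to 3505) against 127, a ratio of 27.1, and Amigo2 had 338 (318 to 359) against 16.1, a ratio of 21.1. The regulator Nr2f2 had 104 (92.9 to 116) against 6.01, a ratio of 17.3. The receptor gene Ephb4 had 109 (98.3 to 122) against 67.8, a ratio of 1.61. Markers of other cell types were low in venous-like EC: the summed level of 7 pan-leukocyte genes was 0.314 CPM, with Ptprc at 0. The 9 mural genes in the table summed to 97.8 CPM against 25.3 in other EC, with Pdgfrb, Cspg4, Cox4i2, Postn and Des at 0, and their part in these levels was not tested.

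Other vessel types split the 9 genes. Lymphatic-like EC, 55 cells with Ccl21a and Mmrn1, had 5 members at high level. Nr2f2 was higher there (288 CPM, 231 to 353) than in venous-like EC, and Fgl2 was at 249 (197 to 311), with intervals that overlapped those of venous-like EC. Prss23 was at 1514 CPM, Cpe at 240 and Ch25h at 102, between the levels of venous-like and of capillary EC. Slc6a2 had 1 UMI, Amigo2 4 and Bst1 5 in those 55 cells, so these 3 members set venous-like EC most widely apart from lymphatic-like EC.

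Arterial-like EC (836 cells) carried Cpe and Amigo2. Cpe stood at 94.9 CPM (87.2 to 103) over the class, and at 324 in the arterial-like cluster of 208 EC led by Htra1, Mgp and Gja5. Amigo2 was at 96.2 in that cluster. Slc6a2 (2.74), Nr2f2 (2.22), Fgl2 (1.2) and Bst1 (4.96) were each below 5 CPM over arterial-like EC.

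Capillary EC carried Ephb4 and Prss23. General capillary-like EC were named from a list that holds Gpihbp1 and Plvap. Some of their clusters, the largest with 1163 EC, had no gene of that list among their 10 leading genes. General capillary-like EC had Ephb4 at 88.3 CPM (85.3 to 91.4). The cluster with the highest Ephb4 level of all was a general capillary-like one led by Kit, at 131. Aerocyte-like EC, the capillary cells with Car4 and Ednrb, had 24.4 (22 to 26.9). Prss23 had 162 CPM (158 to 166) in general capillary-like EC and 13 (11.3 to 14.9) in aerocyte-like EC. With each EC thinned to 2500 UMIs, a Prss23 UMI was found in 17.8% of general capillary-like and 2.77% of aerocyte-like EC, and an Ephb4 UMI in 12.9% and 4.77%. For Cpe these shares were 0.464% and 0.462%, so no difference between the capillary classes is read from them. Unthinned, the shares for Cpe were 1.01% and 1.54%, at median depths of 6190 and 10601 UMIs.

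**Figure D1:**
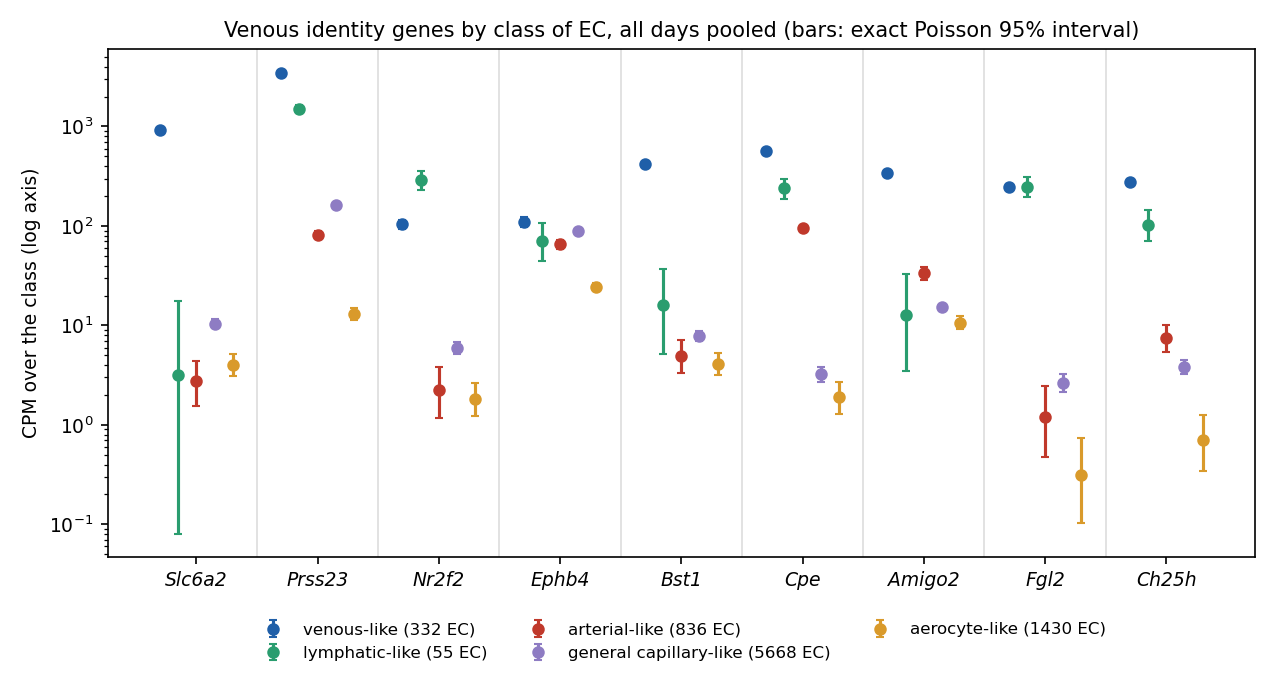
Level of each venous identity gene in 5 classes of EC, all days pooled, in CPM on a log axis, with exact Poisson 95% intervals as bars. Venous-like EC stood highest for 7 of the 9 genes; Nr2f2 and Fgl2 were highest in lymphatic-like EC, with overlapping intervals for Fgl2, and Ephb4 differed least between classes.

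At d15, in mice with the primary tumour, the members did not move as 1 group over all EC. The regulator Nr2f2 and the sterol enzyme gene Ch25h were higher than at d0, and the surface enzyme gene Bst1 and Fgl2 were lower. Genes were measured where they reached 10 CPM on either day and 100 UMIs over the pair of days. Past the size rule were those that differed 1.5 times or more, up or down, with an interval free of 1. All 9 members were measured, and 4 were past the rule, 2 higher and 2 lower, where 12.9% of the 8409 measured genes were (7.28% higher and 5.59% lower). The median log2 ratio was 0.20 over the members and 0.02 over all measured genes. Without the 5% of EC with the most UMIs Nr2f2 was at 1.44, and with EC thinned to 2500 UMIs Ch25h was at 1.38, each then short of the rule.

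Nr2f2 had 10.8, 19.3, 9.25 and 8.92 CPM on the 4 days. It was high at d15 alone, at 1.79 times the d0 level (1.44 to 2.22), and the other 3 days had overlapping intervals. Ch25h had 16.1, 24.8, 17.7 and 18.7 CPM, and was likewise highest at d15, at 1.54 times d0 (1.28 to 1.85). Slc6a2 had 59.7, 88.7, 37.9 and 58.3 CPM. Its d15 level was 1.49 times that at d0 (1.35 to 1.64), just short of the rule, its d36 level was at that of d0, and its d22 level was the lowest. Amigo2 had 32.7, 47.7, 29.6 and 23.5 CPM, and was 1.46 times higher at d15 (1.28 to 1.66).

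Bst1 had 40.9 CPM at d0 and 23.2, 21.4 and 17.8 at the later days, which lay below d0 with intervals apart from it. Fgl2 had 22.5, 12.3, 12.9 and 6.54 CPM. Both were lower at every later day, and Fgl2 was lowest at d36. At d15 the ratio to d0 was 0.567 for Bst1 (0.477 to 0.671) and 0.544 for Fgl2 (0.427 to 0.685).

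Prss23 had 321, 312, 270 and 253 CPM, and Ephb4 had 73.4, 80.2, 62.5 and 77.9 CPM. Neither passed the rule in any of the 4 comparisons. Prss23 was lower at d22 (0.842, 0.815 to 0.87) and at d36 (0.787, 0.746 to 0.83) by less than the fold required, and the d15 and d36 ratios of Ephb4 had intervals that held 1. Cpe had 51.3, 59.3, 34 and 22.8 CPM, and was lower at d22 and d36 but not at d15.

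**Figure D2:**
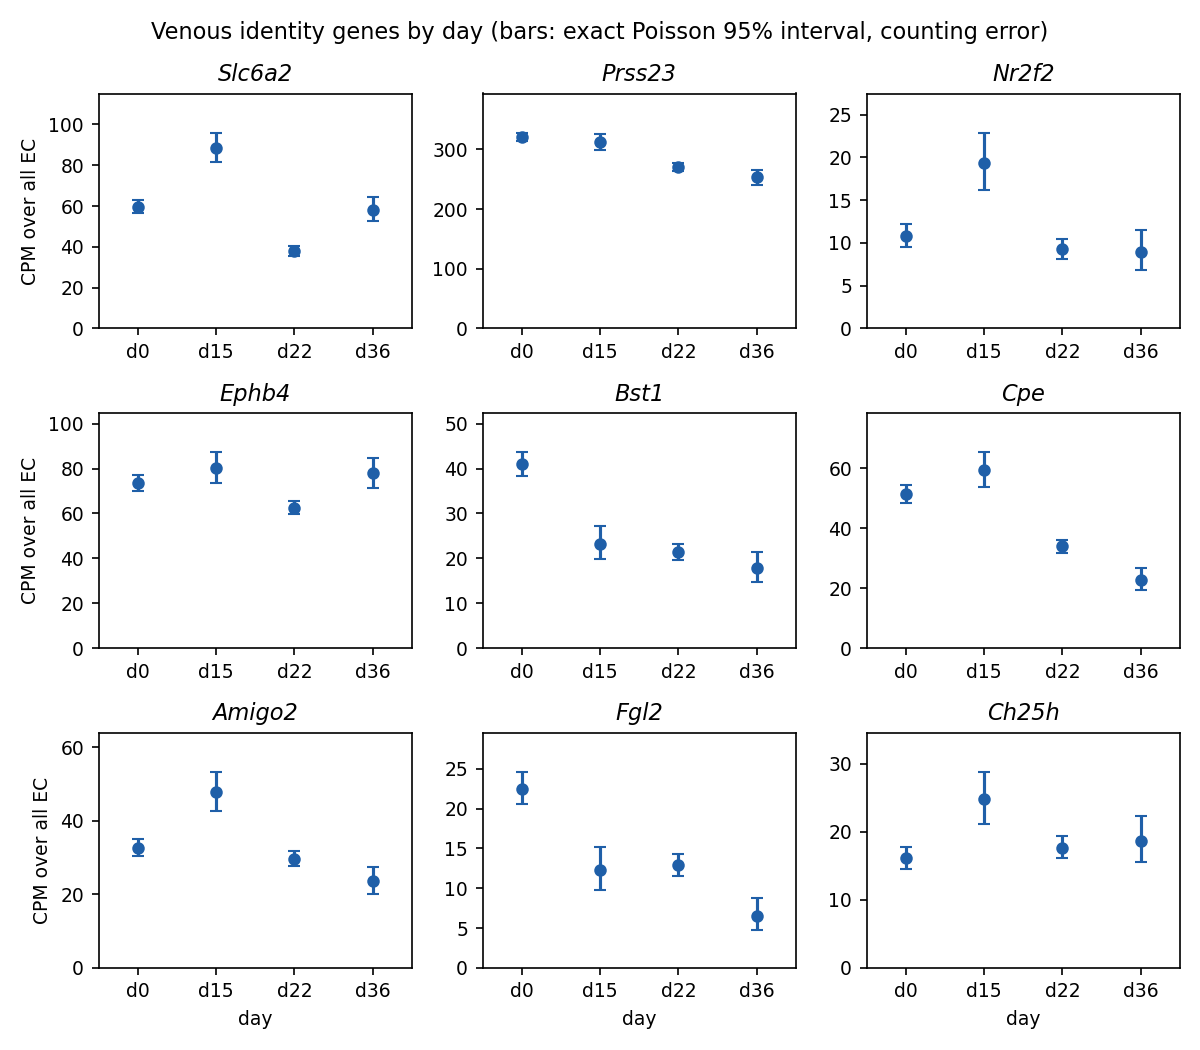
Level of each venous identity gene over all EC by day, in CPM, with exact Poisson 95% intervals for counting error as bars; each axis starts at 0. Nr2f2, Slc6a2, Amigo2 and Ch25h were highest at d15, Bst1 and Fgl2 were highest at d0, and Cpe was lowest at d36.

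At d22, after resection and at near-equal depth to d0, the members past the rule were all lower: Slc6a2, Bst1, Cpe and Fgl2, 4 of 9. Over all measured genes, 3.65% of 8163 were past the rule (0.564% higher and 3.09% lower). The noradrenaline transporter gene was at 0.635 times its d0 level (0.585 to 0.688), Bst1 at 0.522 (0.47 to 0.579), Cpe at 0.662 (0.607 to 0.722) and Fgl2 at 0.571 (0.498 to 0.655). The median log2 ratio of the members was -0.25, and that of all measured genes -0.01. The ratios of Slc6a2 and Cpe were just past the required fold, and with classes of EC weighted to the same shares at both days Slc6a2 was at 0.767, Cpe at 0.716, Fgl2 at 0.689 and Bst1 at 0.615, which left Bst1 alone past the rule.

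At d36, in mice with metastases, Bst1, Cpe and Fgl2 were lower than at d0, 3 of 9, and no member was higher. Here 13.5% of 8370 measured genes were past the rule, 6.16% higher and 7.29% lower. Fgl2 had the lowest ratio of the 9, at 0.29 (0.208 to 0.395), with Bst1 at 0.436 (0.357 to 0.527) and Cpe at 0.444 (0.372 to 0.525). The median log2 ratio of the members was -0.34 against -0.03 over all genes, and it turned to 0.05 with classes weighted to the same shares. Under that weighting Slc6a2 was at 1.72 and Ch25h at 1.99 times the d0 level, while Fgl2 was at 0.519, Bst1 at 0.642 and Cpe at 0.683. These weighted values rest in part on the 33 venous-like EC of d36, whose share the weighting sets. They are given without intervals, as a description.

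Between d15 and d36, with the primary tumour and with metastases, all 9 ratios were below 1 and 5 were past the rule. Over 8368 measured genes, 9.7% were past it (3.57% higher and 6.13% lower). Cpe was at 0.384 of its d15 level (0.317 to 0.463), Nr2f2 at 0.462 (0.335 to 0.63), Amigo2 at 0.492 (0.405 to 0.597), Fgl2 at 0.534 (0.362 to 0.777) and Slc6a2 at 0.657 (0.578 to 0.747). The median log2 ratio was -0.60 against -0.04. With classes weighted to the same shares it was 0.10, with Slc6a2 at 1.07 and Fgl2 at 1.13, and with EC thinned to 2500 UMIs the median was -0.21 and Slc6a2 was at 0.931. With venous-like EC left out it was -0.00, and Nr2f2 was at 1.04. The weighted values here too rest in part on the 33 venous-like EC of d36. The comparisons of d15 and d36 with d0 share the d0 cells, and the last one shares its cells with both.

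Because most of the members' UMIs lay in venous-like EC, levels were also read within that class. It held 122, 54, 123 and 33 EC, or 4.62%, 3.62%, 3.85% and 2.08% of EC. These shares were not compared between days, because genes that define the cluster, such as Car8 (36.7, 43.4, 30.6 and 10.3 CPM over all EC), differed between days too. With 33 cells at d36, only levels are given for that day.

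Within venous-like EC the 9 genes again went separate ways by day. Nr2f2 had 86.9, 218, 97.6 and 36 CPM, the last from 7 UMIs (14.5 to 74.2). Its d15 level was 2.51 times that at d0 (1.87 to 3.36), against 1.79 times over all EC. Amigo2 had 308, 510, 320 and 329 CPM, with a ratio of 1.65 at d15 (1.39 to 1.97), and the other 3 days overlapped. Ch25h had 214, 336, 304 and 386 CPM, so that all later days stood above d0, at 1.57 (1.27 to 1.94) for d15 and 1.42 (1.22 to 1.66) for d22.

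Slc6a2 had 914, 1272, 712 and 1517 CPM in venous-like EC. It was higher at the 2 days of low depth and lowest at d22, at 1.39 (1.25 to 1.55) and 0.779 (0.714 to 0.849) times d0 for d15 and d22. Bst1 had 524, 315, 355 and 355 CPM and Fgl2 had 314, 158, 219 and 134 CPM. Both were highest at d0 in this class too, with d15 ratios of 0.602 (0.492 to 0.732) and 0.503 (0.377 to 0.66). Cpe had 642, 647, 483 and 504 CPM, so that d15 was level with d0 (ratio 1.01, 0.87 to 1.16), and the d36 level inside the class lay closer to d0 than over all EC. Prss23 had 3295, 3456, 3533 and 3791 CPM, a narrow range. Ephb4 had 124, 142, 82.9 and 123 CPM.

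**Figure D3:**
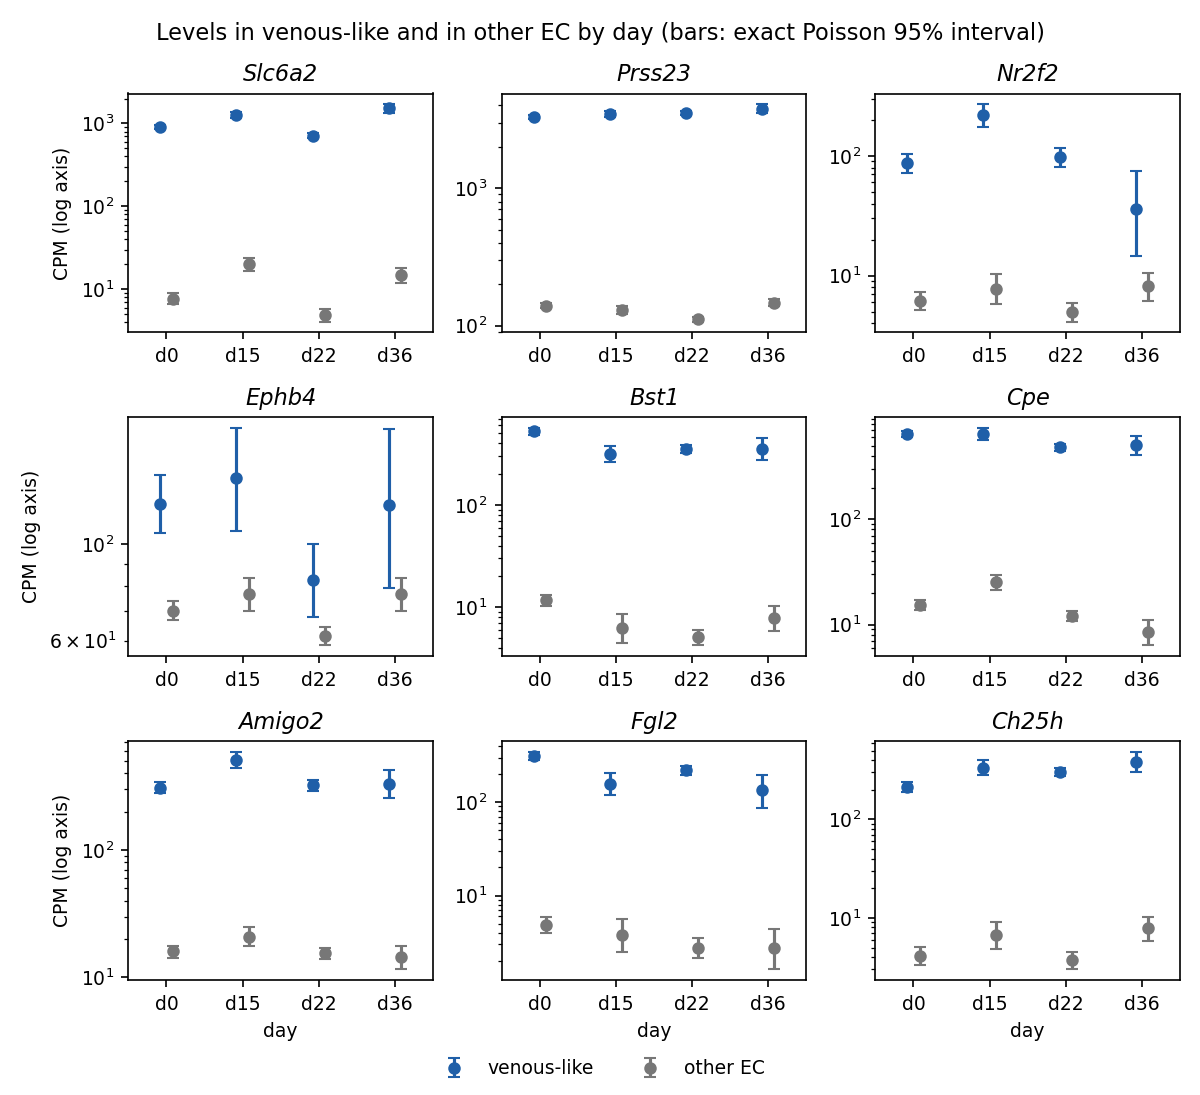
Level of each venous identity gene in venous-like EC (blue) and in all other EC (grey) by day, in CPM on log axes, with exact Poisson 95% intervals as bars. Venous-like EC stood above other EC at every day for all 9 genes, with overlapping intervals for Ephb4 at d36, and Nr2f2 in venous-like EC was highest at d15 (218 CPM) and lowest at d36 (36 CPM).

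Outside venous-like EC, Slc6a2 was low at every day but higher on the 2 days of low depth. It had 7.72, 20, 4.89 and 14.9 CPM in other EC, from 168, 131, 129 and 97 UMIs, which is 2.59 times d0 at d15 (2.04 to 3.27) and 1.92 times at d36 (1.48 to 2.48). In general capillary-like EC it had 7.7, 23.8, 6.35 and 19.2 CPM, with d15 at 3.09 times d0 (2.32 to 4.11) and d36 at 2.5 times (1.84 to 3.38). Aerocyte-like EC had 3.14, 8.95, 3.03 and 9.09 CPM and arterial-like EC 3.11, 7.7, 1.02 and 4.55, each from 22 UMIs or fewer. Both were also higher at d15 and d36 than at d0, with intervals that overlapped those of d0. Of these classes, only general capillary-like EC had d15 and d36 intervals apart from that of d0 (6.26 to 9.38). Whether the higher level was particular to that class is therefore not settled by these counts. At d15 the aerocyte-like level (4.47 to 16) was below the 19.5 to 28.8 of general capillary-like EC. Thinned to 2500 UMIs with days pooled, 1.98% of general capillary-like and 0.769% of aerocyte-like EC had a Slc6a2 UMI. Unthinned shares at d15 were 4.77% at a median of 3756 UMIs and 5.98% at 5430, and at d36 3.72% at 3612 and 3.31% at 3148. The part of free RNA in these low levels was not tested. Further transcripts of venous-like EC did not move alike in other EC. Vwf had 93, 152, 84.5 and 143 CPM there and Ch25h 4.09, 6.72, 3.72 and 7.81, both higher at d15 and d36 than at d0. Car8 had 9.29, 5.49, 6.48 and 1.68 CPM and Fgl2 4.83, 3.82, 2.77 and 2.76, neither higher on those days. Car8 was lower at d36 over all EC too (10.3 CPM against 36.7 at d0). Bst1 had 11.6, 6.26, 5.04 and 7.81 CPM in other EC and stood highest at d0 there as well.

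The share of EC with a UMI was compared after thinning to 2500 UMIs, which left out 453 EC at d15, 578 at d36 and none at d0 and d22. A Slc6a2 UMI was found in 4.85% (4.06 to 5.74), 5.59%, 3.23% (2.64 to 3.9) and 4.87% of EC. Unthinned shares were 7.01%, 7.38%, 4.76% and 4.92%. Bst1 was found in 4.17% (3.44 to 5), 2.41%, 2.25% (1.77 to 2.83) and 1.69% (0.987 to 2.69), against 6.1%, 2.21%, 3.6% and 1.7% unthinned. These shares were highest at d0 for Bst1 and lowest at d22 for Slc6a2, as the levels were.

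For Nr2f2 the thinned share was 1.55%, 2.89%, 1.41% and 1.29% (2.99%, 2.82%, 2.22% and 1.45% unthinned), highest at d15, with an interval that overlapped that of d0 (1.12 to 2.1) and not that of d22 (1.03 to 1.88). Fgl2 was found in 2.5%, 1.16%, 1.5% and 1.09% (3.48%, 1.21%, 2.41% and 0.884% unthinned) and Cpe in 3.71%, 4.05%, 2.51% and 1.89% (5.04%, 3.96%, 3.79% and 1.89% unthinned). Each of these 2 genes had its lowest share at d36. Amigo2 was found in 3.9%, 4.62%, 3.54% and 2.58% (6.52%, 4.56%, 5.48% and 2.78% unthinned), and Ch25h in 1.48%, 1.35%, 1.16% and 1.59% (2.23%, 1.68%, 1.97% and 1.77% unthinned). The share of Ch25h-positive EC was no higher at d15 although its level was, and cells with the transcript held a mean of 6.88 UMIs at d15 and 6.31 at d0, at lower depth.

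Prss23 was found in 20% of thinned EC at d0 and in 16.6%, 16.9% and 16.5% at the later days (27.1%, 16.5%, 22.7% and 15.4% unthinned). Ephb4 was found in 11.9%, 10.8%, 11.1% and 10% (20.6%, 11.5%, 17% and 10.6% unthinned), with overlapping intervals. For both genes the unthinned shares moved with depth per cell, and the thinned shares of the 4 days lay closer together. The interval of Prss23 at d0 (18.5 to 21.6) lay above that at d22 (15.7 to 18.3), the day of near-equal depth.

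Single cells carried the members jointly. Among thinned EC, 129 of 2640 at d0 had at least 3 of the 9 members with a UMI (4.89%, 4.1 to 5.78), and 100 of them were venous-like. At d15 it was 48 of 1038 (4.62%, 3.43 to 6.08), 37 of them venous-like, at d22 118 of 3193 (3.7%, 3.07 to 4.41), 95 of them venous-like, and at d36 32 of 1006 (3.18%, 2.19 to 4.46), 22 of them venous-like. At this depth the intervals of all 4 days overlapped. Thinned to 1200 UMIs, which left out no EC, the shares were 3.41% (2.75 to 4.17), 3.09% (2.27 to 4.09), 2.38% (1.88 to 2.97) and 1.39% (0.872 to 2.1), and the interval of d36 lay below those of d0 and d15. Unthinned, the shares were 6.67%, 4.02%, 4.54% and 2.34%, in the order of depth for d0, d15 and d36. The highest number in 1 cell was 8, 7, 9 and 6.

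Seen from the class, 82% of venous-like EC at d0 had at least 3 members (74 to 88.3), and 75.5%, 77.2% and 73.3% at d15, d22 and d36, with overlapping intervals. Of other EC, 1.15%, 1.11%, 0.749% and 1.02% had them by day. The mean number of members per venous-like EC was 4.01, 3.82, 3.6 and 3.47. Without any of the 9 were 0.82% of venous-like EC at d0 and 69.4% of other EC.

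**Figure D4:**
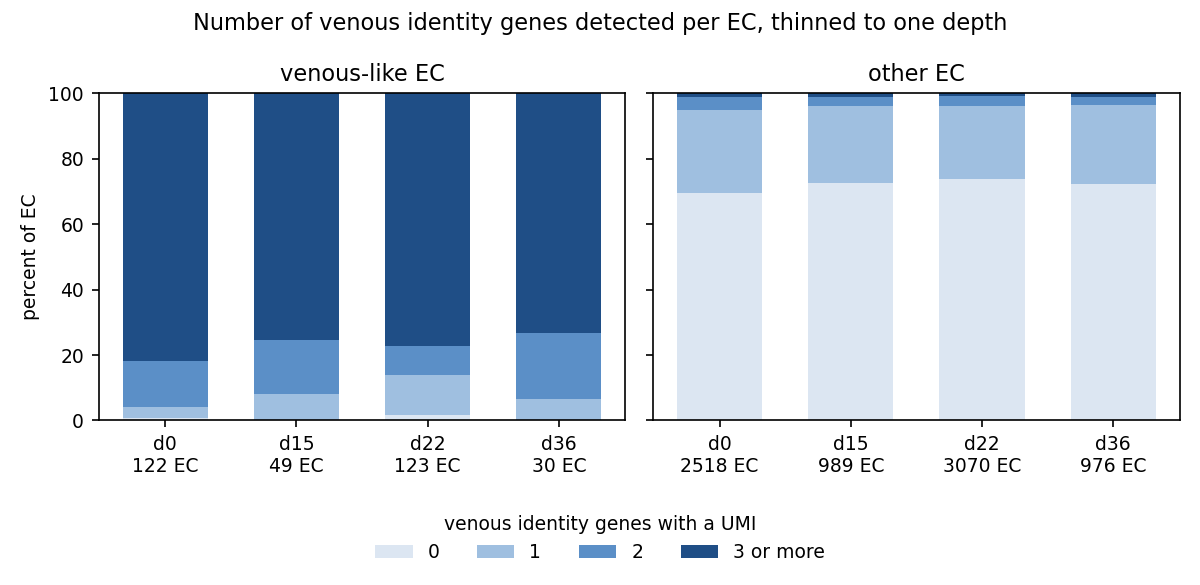
Percent of venous-like EC (left) and of other EC (right) with 0, 1, 2 or at least 3 of the 9 venous identity genes detected, by day, each EC thinned to 2500 UMIs; the number of EC is under each bar. At least 3 were found in 73.3% to 82% of venous-like EC and in 0.749% to 1.15% of other EC.

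Pairs of members were found in the same cell more often than the product of their shares over all EC. For 36 pairs with all days pooled, the number of EC with both genes was a median of 8.29 times that product, from 1.11 for Ephb4 with Amigo2 to 17.8 for Cpe with Fgl2. Slc6a2 and Prss23 shared 255 EC where the product gave 60.4, and 75.4% of Slc6a2-positive EC had Prss23, against 18.1% of Prss23-positive EC with Slc6a2. Slc6a2 and Bst1 shared 110 EC where the product gave 9.61. The 8 pairs below a ratio of 2 were those with Ephb4.

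By day, the median ratio was 7.75 at d0 over 34 pairs with a product of at least 1 cell, 4.46 at d15 over 24, 6.28 at d22 over 31 and 2.72 at d36 over 16. Fewer EC and fewer positive cells at d15 and d36 left rarer pairs out, so these medians are over different pairs. Slc6a2 with Prss23, present at all 4 days, had 3.9, 4.16, 4.93 and 3.59, a narrower range.

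Within venous-like EC the joint detection was close to the product. The median ratio was 1.06, 1.04, 1.14 and 1.03 at d0, d15, d22 and d36, and the highest with days pooled were 1.52 for Nr2f2 with Ch25h and 1.4 for Cpe with Fgl2 (62 EC where the product gave 44.3). With days pooled, 33 of 36 pairs lay above 1, and Slc6a2 with Bst1 was at 1.05. Pairs with Prss23, found in 94.8% of thinned venous-like EC, cannot rise far above 1. In EC outside the class the pooled median was 2.59 over 22 pairs with a product of at least 1 cell, of which 21 lay above 1 and 14 at 2 or more. By day the medians there were 1.26, 1.27, 2.2 and 1.78 over 15, 10, 15 and 9 pairs, of which 6, 1, 0 and 3 lay below 1. Other EC pool classes that held the members at unlike levels, such as lymphatic-like and arterial-like EC. Their ratios therefore do not show joint detection within 1 class, and the part of this mix was not tested.

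**Figure D5:**
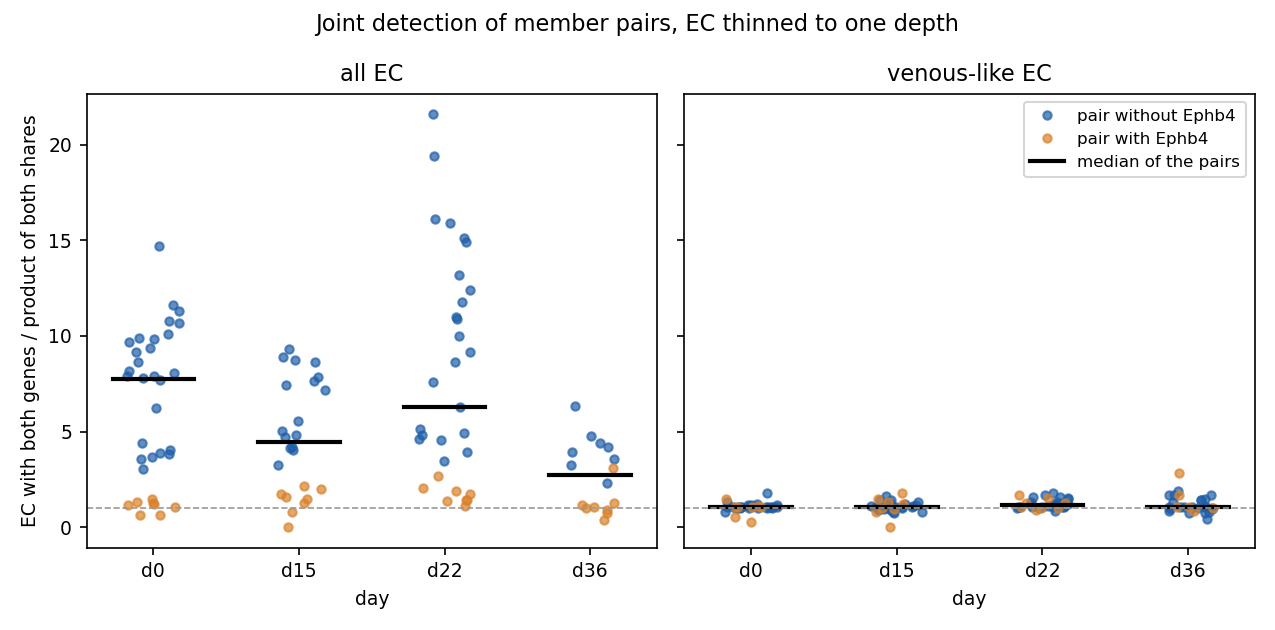
Number of EC with both genes of a pair divided by the product of both genes' shares, by day, in all EC (left) and in venous-like EC (right), each EC thinned to 2500 UMIs; points are pairs with a product of at least 1 cell, orange for pairs with Ephb4, and black lines are medians. Medians were 7.75, 4.46, 6.28 and 2.72 in all EC and 1.03 to 1.14 in venous-like EC, where the dashed line at 1 marks the product.

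Pearson correlations of log-normalised levels were taken across the 8908 EC, which share libraries and depth, and are given as a description. They were 0.48 for Slc6a2 with Prss23, and 0.43 for Cpe with Fgl2 and for Slc6a2 with Bst1. Nr2f2 had 0.12 to 0.23 with the members other than Ephb4, and Ephb4 had at most 0.06. By day, Slc6a2 with Bst1 had 0.47, 0.40, 0.51 and 0.26. At d36, where Nr2f2 rested on 60 UMIs, it had 0.01 to 0.06 with the members other than Ephb4.

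The genes most like the 9 across EC were ranked by the correlation of their level with the mean scaled level of the members. Car8, a carbonic anhydrase-related protein, came first (0.57), followed by the adhesion molecule Vcam1 (0.52), the matrix proteoglycan Bgn (0.49), Vwf (0.47), Tmem45a (0.45), the elastic fibre gene Fbln5 (0.44), the protease Ctsh (0.43), Cytl1 (0.42), the phospholipase Pla2g4a (0.38) and Lpcat2 (0.38). All 10 were higher in venous-like than in other EC, among them Vcam1 at 966 against 37.5 CPM and Lpcat2 at 131 against 2.01. By day Vwf had 165, 241, 146 and 173 CPM, Vcam1 106, 62.7, 77.1 and 54.4, Bgn 84.1, 68.4, 65.1 and 42.5, and Fbln5 68.3, 66.5, 64.5 and 29. Their levels by day thus differed as the members' did, with Vcam1 highest at d0 like Bst1 and Fgl2, and Vwf highest at d15 like Slc6a2.

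Other genes of veins and large vessels, a list of 18 without the members, had 15 measured at d15, 2 higher and 2 lower. For this list and those below, the shares of all measured genes past the rule were 12.9% at d15, 3.65% at d22 and 13.5% at d36 against d0. The lists are short, so their counts are given as a description. Lrg1, a secreted glycoprotein, was at 279 CPM against 136 at d0 (2.05, 1.93 to 2.17), and the chemokine receptor Ackr1 at 14.7 against 5.29 (2.78, 2.12 to 3.65). Thinned to 2500 UMIs, which rests on 11 and 30 UMIs and leaves out 453 EC at d15, Ackr1 was at 0.933 (0.422 to 1.91), so its d15 ratio did not hold, and Lrg1 was at 1.88 (1.69 to 2.09). At d22 none of 14 passed the rule. At d36 2 of 15 were higher and 4 lower, with Ackr1 at 18.6 CPM (3.52, 2.72 to 4.55) and Car8 at 10.3 (0.279, 0.215 to 0.357) the widest ratios. The list's median log2 ratios were 0.10, -0.21 and -0.19.

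Arterial genes had 18 of 20 measured, with 5 higher and 1 lower at d15, 1 lower at d22, and 3 higher and 4 lower at d36. The Notch ligand Jag1 was at 34.8 CPM at d15 against 14.4 at d0 (2.41, 2.03 to 2.85), and the connexin Gja5 at 21.3 against 10 (2.13, 1.72 to 2.63). The matrix gene Fbln2 was lower at every later day, at 0.407 (0.348 to 0.474) at d22 and 0.268 (0.189 to 0.369) at d36, where the netrin receptor gene Unc5b was at 0.394 (0.28 to 0.541). Median log2 ratios were 0.35, 0.11 and 0.27, against 0.02, -0.01 and -0.03 over all measured genes. Bmx, an arterial kinase gene, had 10.3, 17.3, 13.8 and 14.9 CPM by day.

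Efnb2, the gene of the EphB4 ligand ephrin-B2, and Efnb1, another B-type ephrin gene, passed the rule unthinned at d15 and d36. Ephb4 did not. Of 6 measured Eph receptors and ephrins, 2 were higher at d15 and at d36 and none at d22, and both were B-type ephrins. Efnb2 had 76, 134, 82.3 and 130 CPM, at 1.76 times d0 at d15 (1.62 to 1.91) and 1.71 at d36 (1.58 to 1.86). Efnb1 had 167, 278, 169 and 257 CPM, at 1.67 (1.58 to 1.76) and 1.54 (1.46 to 1.63). With EC thinned to 2500 UMIs, Efnb2 was at 1.34 (1.17 to 1.53) at d15, short of the rule, and 1.53 (1.34 to 1.74) at d36, and Efnb1 at 1.66 (1.51 to 1.82) and 1.61 (1.46 to 1.77).

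Among partners of Nr2f2, 7 of 11 were measured at d15, with Nr2f2 and the cofactor gene Zfpm1 higher (11 against 6.67 CPM, 1.64, 1.23 to 2.18, but 0.944 to 2.83 when thinned) and the SoxF factor gene Sox18 lower. Sox18 had 222 CPM at d0 and 86.5 at d15 (0.39, 0.357 to 0.424), 309 at d22 and 118 at d36 (0.532, 0.493 to 0.574). None of 5 passed the rule at d22, and Sox18 alone of 6 did at d36.

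In the remaining lists few genes passed the rule beside the members themselves. Of 8 measured genes around 25-hydroxycholesterol, Ch25h was the 1 higher at d15, and the sterol synthesis gene Hmgcs1 was lower at d22 (0.555, 0.495 to 0.621) and at d36 (0.659, 0.549 to 0.786). Of 4 cyclic ADP-ribose and NAD enzymes, Bst1 alone passed against d0, lower at all 3 days. Of 6 peptide processing genes, none passed at d15 and Cpe alone was lower at d22 and d36. Of 9 serine protease and prothrombinase-like genes, 2 were higher and 3 lower at d15, 2 lower at d22 and 3 lower at d36. The thrombomodulin gene Thbd went from 1093 CPM at d0 to 656 (0.6, 0.581 to 0.619), 581 (0.531, 0.521 to 0.542) and 505 (0.462, 0.446 to 0.479), lower at each later day as Fgl2 was. The plasminogen activator gene Plat was at 1.78 times d0 at d15 (1.66 to 1.92).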

How the data were processed

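The authors deposited 1 table of counts, the UMIs per gene and cell, not normalized. Cell Ranger 2.1.1 and mm10 stand in the submitters' processing notes, while annotation and cell filters were not given in the sources used here. Cells under 300 genes or above 10% mitochondrial UMIs were left out (19). Counts were log-normalised and clustered on 2000 variable genes, 30 principal components and 15 neighbours by the Leiden method at resolution 1.0 (scanpy 1.11.5, leidenalg 0.10.2). Clusters with at least 3 markers of another cell type among their 10 leading genes (100 cells) and cells with at least 2% of UMIs from such markers (9 cells) were left out, and EC were clustered again with the 9 members left out of the variable genes. Clusters were named from marker lists that hold no member. The general capillary name, unlike the others, could be given without a marker of its list among the 10 leading genes. Those whose Malat1 level was under 25% of the median cluster's stayed unnamed. No doublet caller was run, and results were recomputed without the 5% of EC with the most UMIs at each day.

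UMIs were summed over EC by day and divided by the day's total (CPM). Intervals were exact Poisson for CPM, Clopper-Pearson for shares and conditional binomial for ratios. Only the ratio intervals and the size rule were tested on simulated day sums. These were drawn as independent counts, so the test does not cover genes whose UMIs lie in few cells. Medians of log2 ratios had 1 CPM added to each value. Scaling by TMM used edgeR 4.0.16. Positions came from the mm10 annotation and promoters from RefSeq (GRCm38.p6). Named were the 9 members, the 10 genes most like them, 5 reference genes (Vwf, Car8, Efnb2, Gja5 and Bmx), and of each list the 2 genes with the widest ratio past the size rule at each later day. Results of 1 list are not reported here. Members and lists were chosen with earlier results of these data known.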

Additional observations from a re-analysis of the deposited data

How the results depend on the processing

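No paired analysis was possible because a cell's name shows its day and no library; leaving out each library and a fit with a replicate block were not run for the same reason. Every member count and median stayed within 1.5 times or on its side under TMM scaling and with only EC of at least 2600 UMIs. The same held with no minimum on low values and with 0.1 CPM in place of 1. It held for the 67.6% median share of UMIs in venous-like EC at both other clustering resolutions and with members kept among the variable genes. Which members passed did change at d15 against d0. With at least 2600 UMIs 6 passed, among them Slc6a2 at 1.55 and Amigo2 at 1.58. TMM scaling gave 3, with Ch25h at 1.48 short of the rule. No background share is given for these counts.

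The number of members past the size rule (4 at d15, 4 at d22 and 3 at d36 against d0, and 5 at d36 against d15) depended on the rule. A fold of 2 gave 0 at d15, 0 at d22 and 3 for d36 against d15, and a minimum of 50 CPM and 200 UMIs gave 0, 2, 1 and 2. Shares over all measured genes are given for the main rule alone, so counts under these and the following settings have no background beside them. Without the 5% of EC with the most UMIs it was 2 at d22 and 3 for d36 against d15, and thinning to 2500 UMIs gave 3 for d36 against d15 with a median log2 ratio of -0.21. With equal class weights at both days it was 1 at d22 and 3 for d36 against d15, and the median turned from -0.34 to 0.05 for d36 against d0 and from -0.60 to 0.10 for d36 against d15, where Slc6a2 was at 1.07 and Fgl2 at 1.13. Without venous-like EC it was 1 at d22 and 1 for d36 against d15, the medians were 0.07 and -0.00, and Nr2f2 was at 1.04 for d36 against d15. These 2 alternatives change the mix of classes by construction; for the other shifts in numbers of members and for depth the cause was not tested.

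Thinning to 1200 UMIs gave a median share of positive EC of 2.69% at d0, 2.41% at d15 and 1.94% at d22 (3.9%, 4.05% and 2.51% at 2500), EC with at least 3 members of 3.41%, 3.09%, 2.38% and 1.39% by day, and a median pair ratio of 4.82 at d0. Without thinning the median share was 6.1% at d0 and 3.79% at d22, and EC with at least 3 members 6.67% and 4.54%. Over all deposited cells the median pair ratio at d36 was 1.75 in place of 2.72. Thinning to 2500 UMIs was also applied to the list genes past the rule, an alternative chosen after seeing the data: Ackr1 at d15 turned from 2.78 to 0.933, and Efnb2, Zfpm1 and Il1r1 at d15 and Selp, Gja5 and Nrp1 at d36 were among those that no longer passed. Depth limits d36 most: Fgl2 rested on 44 UMIs and Nr2f2 on 60 there, and 33 venous-like EC remained.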

Other observations

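Ch25h had 47 UMIs in 15 of 1022 general capillary-like EC at d36 and 5 UMIs in 5 of 1048 at d15, or 11.2 and 1.13 CPM. Aerocyte-like EC had 0 and 1 UMI of it at those days. Nr2f2 had 48 UMIs in 18 general capillary-like EC at d36, so that of its 60 UMIs at d36, 88.3% lay outside venous-like EC, where it was 38.1% at d15. The 100 cells left out with clusters of other cell types had Nr2f2 at 70.3 CPM, in 15% of them, and Cpe, Bst1 and Amigo2 at 1.12 CPM each. A cluster of 49 EC led by Fabp4 and Meox2, which stayed unnamed, had Prss23 at 729 CPM, Ch25h at 98.8 and Nr2f2 at 40.7, with no UMI of Slc6a2. Slc6a2 outside venous-like EC was highest in proliferating-like EC (49 cells, 32.1 CPM from 21 UMIs) and in the 489 EC poor in Malat1 (25.6 CPM from 43 UMIs, in 13 cells).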
